A study of Mus musculus with 26 samples.

Results

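Keratins are the intermediate filament proteins of epithelial cells. A filament is built from pairs of 1 acidic (type I) and 1 basic or neutral (type II) keratin, so that a cell needs both kinds. Simple epithelia, including those of the lung, are known for the pair of Krt8 (type II) and Krt18 (type I) together with Krt7 and Krt19, whereas the basal layer of stratified epithelia uses Krt5 and Krt14. The 10 keratin genes described here were taken from the deposited count table by symbol, ignoring case. All 10 symbols were among the 55391 gene symbols of the table, and 8 of them passed the filter on low counts that left 14264 genes for testing. Of these genes, 6 are keratins of simple epithelia (Krt7, Krt8, Krt18, Krt19, Krt20 and Krt23) and 4 are keratins of basal, stressed or late-differentiating layers (Krt5, Krt14, Krt17 and Krt80). By type, 6 are type I (Krt14, Krt17, Krt18, Krt19, Krt20 and Krt23) and 4 are type II (Krt5, Krt7, Krt8 and Krt80).

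The samples were the murine lung cancer lines EA1, EA2 and EA3, which carry the genotype EML4-ALK, an oncogenic fusion of a tyrosine kinase gene. The lines were derived from lung tumors of C57BL/6 mice in which a Cas9 adenovirus had joined Eml4 to Alk, EA1 from a Trp53 wild-type mouse and EA2 and EA3 from Trp53 null mice, and EA2 came from another laboratory than EA1 and EA3. Each line therefore stands for 1 tumor-derived culture, and with 1 Trp53 wild-type line and 1 line from the other laboratory, the part of Trp53 status or laboratory in a difference cannot be told apart from that of the line itself. Cells grew in RPMI-1640 with 10% serum and were given alectinib, which inhibits ALK, at 100 nM, or 0.1% DMSO, the solvent. Polyadenylated RNA of each line and treatment was sequenced once on each of days 1, 2, 3 and 5, which gives 24 libraries of 5780062 to 11732401 counts, and 2 further libraries were labelled EA3 day 7. The 2 day 7 libraries went against their label, since over 14335 genes the DMSO one correlated with EA2 DMSO libraries at 0.943 to 0.977 and with those of EA3 at 0.858 to 0.890, and they entered no comparison except where stated. The treatment text of the labels lists days 1, 3, 5 and 7, whereas the titles and time fields used here give days 1, 2, 3 and 5.

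Levels are given as CPM, the share of a library's counts on a fixed per-library scale after edgeR's TMM normalization. Within each line, alectinib and DMSO libraries of the same day were paired and tested with the quasi-likelihood method of edgeR. The 4 days served as replicates, and because no source says that they were separate cultures, a p-value measures only the spread between these libraries. P-values were adjusted after Benjamini and Hochberg over all genes tested, with a threshold of 0.05, and "rose" and "fell" are used for genes past it. Fewer cells that express a keratin and less keratin mRNA in each cell cannot be told apart in these bulk cultures.

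The labelled epithelial origin was checked against other genes. Cdh1, which encodes the adhesion protein E-cadherin, was present in every DMSO library, at 429 to 683 CPM in EA1, 44.9 to 96.9 CPM in EA2 and 579 to 700 CPM in EA3. Epcam, an epithelial surface protein, lay at 75.2 to 211 CPM in EA3 and only at 0.321 to 3.23 CPM in EA1 and 0.301 to 0.627 CPM in EA2 in DMSO, and the 4 alectinib libraries of EA2 held no Epcam count. Vim, the intermediate filament gene of mesenchymal cells, was between 1489 and 6606 CPM in DMSO in all 3 lines. The summed level of 10 fibroblast markers was 9.08 to 44.1 CPM in DMSO and 126 to 479 CPM in alectinib in EA1, 58.5 to 71.5 and 122 to 240 CPM in EA2, and 10.2 to 20.2 and 84.9 to 286 CPM in EA3. Of the 6 fibroblast markers tested, 5 rose in EA1, 3 in EA2 and 5 in EA3, against 19.0%, 13.0% and 17.5% of all genes tested. Lum, Fap and Postn had no count in either treatment of EA2. The part of these marker levels in the keratin values below was not tested.

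The keratin genes lie in the 2 keratin clusters of the mouse genome, on chromosomes 11 and 15. In the GENCODE annotation of mm10, Krt18 (chromosome 15, 102028180 to 102032027, plus strand) starts 23.7 kb from the start of Krt8 (chromosome 15, 101996698 to 102004482, minus strand), so that the 2 partner genes point away from each other. Krt7 (101411043 to 101430313), Krt5 (101707070 to 101712898) and Krt80 (101347444 to 101370162) are on the same chromosome. Krt19 (100140810 to 100148665), Krt20 (99428403 to 99438150), Krt23 (99477974 to 99493137), Krt14 (100203162 to 100207548) and Krt17 (100256217 to 100261029) are on chromosome 11, all on the minus strand.

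Promoter sequences of 4 of these genes are shown because the results below turn on them: the partners Krt18 and Krt8, Krt7, which had the largest fitted difference between lines in DMSO, and Krt23, which had the largest fitted fall with alectinib, in EA3. They are the RefSeq windows of GRCm38.p6 from 250 bases before to 50 bases after the gene's start, 5′ to 3′ on the gene's strand. Krt18 is at chr15:102027966-102028265 (plus strand), Krt8 at chr15:102004293-102004592 (minus strand), Krt7 at chr15:101412153-101412452 (plus strand) and Krt23 at chr11:99493071-99493370 (minus strand). The RefSeq start lay 36 bases downstream of the GENCODE start for Krt18, 140 bases for Krt8, 1360 bases for Krt7 and 17 bases for Krt23. Capitals mark matches to GGAAGT (the core bound by ETS factors, both strands), GGGCGG (a GC box, both strands), TGANTCA (AP-1, both strands) or TATAAA (the TATA box, gene strand only), and no match of 1 motif overlapped another.
Krt18: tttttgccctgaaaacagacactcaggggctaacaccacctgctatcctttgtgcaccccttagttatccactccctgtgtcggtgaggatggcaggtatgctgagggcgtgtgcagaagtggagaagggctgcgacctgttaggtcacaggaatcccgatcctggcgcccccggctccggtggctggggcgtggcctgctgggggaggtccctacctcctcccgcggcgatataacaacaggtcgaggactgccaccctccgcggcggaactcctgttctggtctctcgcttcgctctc
Krt8: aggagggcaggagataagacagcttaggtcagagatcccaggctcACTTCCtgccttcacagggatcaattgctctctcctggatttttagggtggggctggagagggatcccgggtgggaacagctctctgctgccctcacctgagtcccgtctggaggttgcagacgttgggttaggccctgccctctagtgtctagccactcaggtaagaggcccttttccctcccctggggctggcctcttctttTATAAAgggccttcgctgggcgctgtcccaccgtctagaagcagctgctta
Krt7: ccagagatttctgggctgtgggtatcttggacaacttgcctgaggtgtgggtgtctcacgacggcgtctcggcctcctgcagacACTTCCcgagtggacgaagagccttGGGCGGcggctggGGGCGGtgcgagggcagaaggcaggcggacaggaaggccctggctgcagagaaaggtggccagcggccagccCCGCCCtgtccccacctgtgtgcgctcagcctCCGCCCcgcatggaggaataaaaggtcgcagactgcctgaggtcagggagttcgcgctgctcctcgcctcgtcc
Krt23: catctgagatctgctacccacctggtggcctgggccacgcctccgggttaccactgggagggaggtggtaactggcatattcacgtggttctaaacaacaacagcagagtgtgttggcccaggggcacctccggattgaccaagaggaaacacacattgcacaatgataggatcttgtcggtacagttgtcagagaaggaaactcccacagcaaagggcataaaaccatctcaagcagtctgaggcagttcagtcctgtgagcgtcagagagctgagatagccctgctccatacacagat

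Windows were found for 7 of the 10 genes. That of Krt14 lay around a RefSeq start 1518 bases downstream of the GENCODE start, within the annotated gene. GGAAGT occurred in 2 of the 7 (Krt7 and Krt8) against 23.8% of 32851 RefSeq windows of the same length. TATAAA occurred in 2 (Krt8 and Krt20) against 8.32%, and GGGCGG in 1 (Krt7, with 4 matches) against 35.7%. The TATAAA match began at position -1 from the RefSeq start in Krt8 and at -29 in Krt20. TGANTCA was in 0 of the 7 windows and in 7.81% of all windows. The windows of Krt18 and Krt23 held none of these letters, which says nothing about the factors that act on them.

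In DMSO the lines differed in most of their keratin levels, with Krt18 as an exception that did not pass the test. Of the 8 members tested, 6 differed between the lines (edgeR, 2 degrees of freedom, Benjamini-Hochberg), against 39.7% of the 12886 genes tested in the DMSO libraries. Krt18, the type I partner of Krt8, was at 1854 ± 482 CPM in EA1 (mean ± SD, n = 4 days), and EA2 (1618 ± 300 CPM) and EA3 (1641 ± 245 CPM) were within that spread. Its adjusted p of 0.64 between lines by edgeR's test did not pass, and the log2 difference was -0.23 (95% confidence interval -0.71 to 0.24) for EA2 minus EA1 and 0.06 (-0.41 to 0.54) for EA3 minus EA2. Pairwise tests between lines called 29.3% of genes for EA2 against EA1, 22.2% for EA3 against EA1 and 25.6% for EA3 against EA2.

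Krt8 did not follow its partner. It was at 2204, 2547, 1688 and 4169 CPM on days 1, 2, 3 and 5 in EA1. The EA2 libraries held 247, 295, 215 and 255 CPM and the EA3 libraries 1651, 2008, 1137 and 1588 CPM. Every EA2 library lay below every library of the other lines, whose ranges overlapped. Krt8 was 10.7-fold lower in EA2 than in EA1 (log2 difference -3.42 ± 0.29 SE, adjusted p = 1.29e-06, edgeR) and 6.5-fold higher in EA3 than in EA2 (2.70 ± 0.28 SE, adjusted p = 1.12e-05, edgeR). Between EA3 and EA1 the log2 difference of Krt8 was -0.72 (95% confidence interval -1.29 to -0.15), with an adjusted p of 0.0679 by edgeR.

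Krt7, a type II keratin of ducts and glands, spanned the widest range. In EA3 it was at 969, 1047, 391 and 1026 CPM in DMSO, in EA1 at 43.8, 51.8, 25.1 and 58.4 CPM, and in EA2 at 0.269, 0.149, 0.1 and 0.344 CPM, which are 3, 1, 1 and 4 counts. The 3 lines did not overlap. The level was 19.3-fold higher in EA3 than in EA1 (log2 difference 4.27 ± 0.36 SE, adjusted p = 2.64e-06, edgeR), and the log2 difference between EA2 and EA1 was -7.57 ± 0.49 SE (adjusted p = 1.19e-07, edgeR). That difference rests on 9 counts of Krt7 over the 4 EA2 libraries.

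Krt19, the smallest keratin and a partner for either simple type II chain, was lowest in EA2, at 312 ± 78.8 CPM against 1308 ± 586 CPM in EA1 and 1496 ± 722 CPM in EA3 (SD, n = 4 days). It was 4.3-fold lower in EA2 than in EA1 (adjusted p = 0.00107, edgeR) and 4.93-fold higher in EA3 than in EA2 (adjusted p = 0.000646, edgeR). EA3 and EA1 were neighbours in this order, with a log2 difference of 0.20 (95% confidence interval -0.60 to 1.00). Krt20, known from intestinal epithelium, had the same order, with 2.65 ± 1.98 CPM in EA2, 32.4 ± 14.4 CPM in EA1 and 33.7 ± 21.8 CPM in EA3. The log2 difference of Krt20 was -3.62 ± 0.60 SE for EA2 minus EA1 (adjusted p = 0.000472, edgeR).

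Krt23, a type I keratin, was at 18.8, 44.0, 94.8 and 51.2 CPM in EA1, at 0.987, 15.0, 11.0 and 29.2 CPM in EA3, and at 0.358, 0.892, 1.9 and 1.55 CPM in EA2. EA2 did not overlap EA1, and its highest library lay above the lowest of EA3. Krt23 was 45.1-fold lower in EA2 than in EA1 (log2 difference -5.49 ± 0.87 SE, adjusted p = 0.000314, edgeR), and EA3 and EA1 differed by -1.91 (adjusted p = 0.0702, edgeR). Krt80, a type II keratin of late epithelial differentiation, varied least among the 6 that passed, with 30.1 ± 4.49 CPM in EA3, 22.5 ± 3.52 CPM in EA1 and 15.0 ± 5.98 CPM in EA2. It was 2.05-fold higher in EA3 than in EA2 (adjusted p = 0.0125, edgeR).

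The keratins of basal layers were low or absent in DMSO. Krt14 reached 5.68 CPM in EA1, where its lowest library was at 1.5 CPM, and lay between 0.258 and 3.14 CPM in EA2 and EA3, and its adjusted p over the 3 lines was 0.0701 (edgeR). The pair of EA2 and EA1 alone passed for Krt14, with a log2 difference of -2.05 (95% confidence interval -3.56 to -0.53, adjusted p = 0.0432, edgeR). Krt5, its type II partner, had 0 counts in each of the 24 libraries. A library total of 5780062 to 11732401 counts and a floor of 3 counts set the limit below which Krt5 could not be seen, and floors here cover counting error only. Krt17, a keratin of stressed and regenerating epithelium, had 0 counts in all 12 DMSO libraries. Of the 45 other keratin symbols in the table, 6 passed the filter, the pseudogene Krt8-ps among them, and the highest of those in DMSO was Krt13, at 9.51 to 27.5 CPM in EA1.

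**Figure D1:**
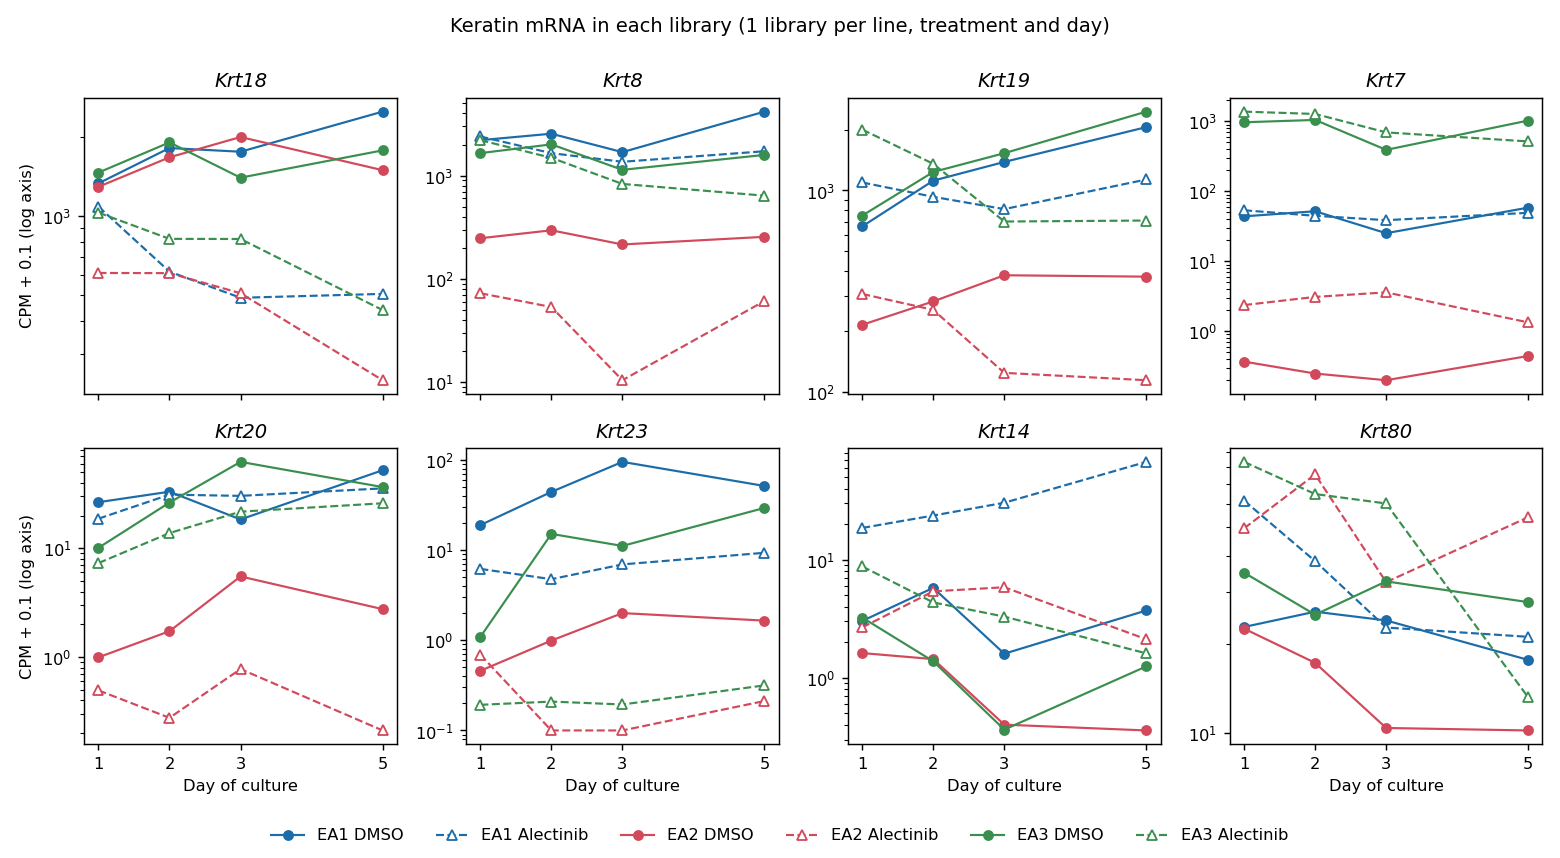
CPM plus 0.1 (log axis) of the 8 keratins that passed the filter, by day of culture, with 1 point per library, lines in colour, DMSO as filled circles and alectinib as open triangles. Krt18 starts from like levels in the 3 lines and is lower with alectinib on each of the 4 days, whereas Krt7 and Krt8 lie far apart between lines.

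The make-up of the keratin pool was compared on a scale of CPM per kb of the principal transcript, which allows levels of different genes to be set side by side. The summed level of the 10 keratins in DMSO was 3546 ± 1194 CPM per kb in EA1, 1461 ± 239 in EA2 and 3153 ± 630 in EA3 (SD, n = 4 days). In EA1, Krt8 made up 38.1% ± 6.98 of it, Krt18 37.0% ± 2.94 and Krt19 22.9% ± 5.18. In EA2, Krt18 alone made up 76.9% ± 2.45, and Krt8 only 9.06% ± 1.97. In EA3, Krt18 held 36.6% ± 3.48, Krt19 29.4% ± 10.4, Krt8 26.2% ± 5.87 and Krt7 6.64% ± 2.33. The share of Krt7 in EA3 depends on the transcript length, since coding length in place of the principal transcript gave 14.4% ± 4.76 and all annotated exon bases gave 4.16%.

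The balance of type II and type I keratin mRNA was read on the same scale. The ratio of summed type II to summed type I level in DMSO was 0.403 to 0.831 in EA1, 0.346 to 0.725 in EA3 and 0.0692 to 0.129 in EA2. In EA3 this ratio depends on length, with a mean of 0.513 on this scale and 0.822 (0.519 to 1.19) without length scaling. The ratio of Krt8 to Krt18 was 1.04 ± 0.243 in EA1, 0.711 ± 0.106 in EA3 and 0.118 ± 0.027 in EA2, and EA2 did not overlap the other lines on either measure. These ratios are descriptions, with no test.

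**Figure D2:**
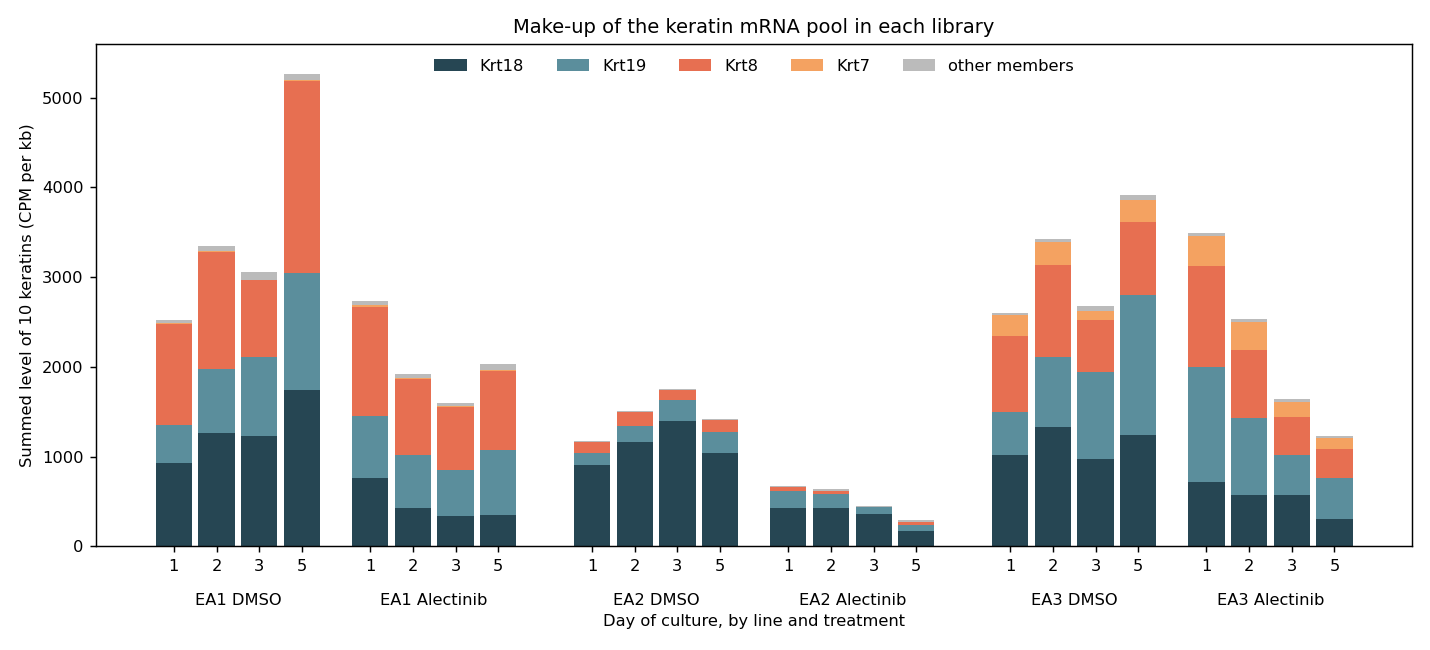
Summed level of the 10 keratins (CPM per kb of the principal transcript) in each of the 24 libraries, split into Krt18, Krt19, Krt8, Krt7 and the other members. In EA2 the bars are mostly Krt18 (76.9% in DMSO), and the bars of EA2 in alectinib (288 to 674) are the lowest of the plot.

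With alectinib, 1 of the 8 tested members rose and 2 fell in EA1, 3 rose and 3 fell in EA2, and 1 rose and 3 fell in EA3. Over all genes tested, 19.0% rose and 14.6% fell in EA1, 13.0% rose and 11.3% fell in EA2, and 17.5% rose and 15.1% fell in EA3. Median log2 fold changes over the 8 members were -1.27 for EA2, -0.21 for EA1 and -0.40 for EA3, beside 0.00, 0.07 and 0.07 over all genes. Among the simple keratins tested, 0 rose and 2 fell of 6 in EA1, 1 rose and 3 fell in EA2, and 0 rose and 3 fell in EA3. Of the 2 keratins of other layers that were tested, Krt14 and Krt80, 1 rose in EA1, both in EA2 and 1 in EA3.

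Krt18 fell in each of the 3 lines. In EA1 it was at 1335, 1819, 1761 and 2502 CPM in DMSO on days 1, 2, 3 and 5 and at 1089, 616, 490 and 507 CPM in alectinib. In EA2 it was at 1295, 1677, 2003 and 1498 CPM in DMSO and at 609, 608, 510 and 238 CPM in alectinib. In EA3 the DMSO libraries held 1467, 1911, 1403 and 1782 CPM and the alectinib libraries 1033, 821, 820 and 440 CPM. In each line every alectinib library lay below every DMSO library. The log2 fold change was -1.51 ± 0.33 SE in EA1 (2.85-fold lower, adjusted p = 0.00387), -1.79 ± 0.33 SE in EA2 (3.46-fold, adjusted p = 0.00153) and -1.13 ± 0.325 SE in EA3 (2.18-fold, adjusted p = 0.0175), all from edgeR. In EA3 the call was lost without day 2 (log2 fold change -1.14, adjusted p = 0.0813, edgeR) and without day 5 (-0.83, adjusted p = 0.0626, edgeR).

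The distance between treatments for Krt18 was smaller on day 1 than on day 5. The log2 ratio of alectinib to DMSO went from -0.29 on day 1 to -2.30 on day 5 in EA1, from -1.09 to -2.65 in EA2 and from -0.51 to -2.02 in EA3. The slope of Krt18 per doubling of days was -0.86 for EA1 (adjusted p = 0.148, edgeR), and it was -0.68 for EA2 (adjusted p = 0.648) and -0.55 for EA3 (adjusted p = 0.252), so that the change over days did not pass the test.

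Krt8 fell in EA2. There it was at 247, 295, 215 and 255 CPM in DMSO and at 72.3, 53.2, 10.3 and 60.8 CPM in alectinib, without overlap, and the day 3 alectinib library was the lowest by far. The log2 fold change was -2.61 ± 0.39 SE (6.11-fold lower, adjusted p = 0.000352, edgeR), and -2.10 without day 3 (adjusted p = 0.00297, edgeR). In EA1, Krt8 was at 2393, 1650, 1361 and 1722 CPM in alectinib, and in EA3 at 2207, 1487, 830 and 639 CPM, which overlapped the DMSO libraries in both lines. The log2 fold changes of -0.52 in EA1 (95% confidence interval -1.30 to 0.25) and -0.45 in EA3 (-1.23 to 0.33) did not pass the test (adjusted p = 0.277 and 0.37, edgeR). Without the filter on low counts both passed, at -0.58 in EA1 (adjusted p = 0.00952, edgeR) and -0.48 in EA3 (adjusted p = 0.0497, edgeR). That fit gave far smaller adjusted p-values at like folds, such as 8.62e-39 in place of 0.000352 for Krt8 in EA2 (edgeR). Its p-values are therefore not comparable with those of the main fit.

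The ratio of Krt8 to Krt18 (CPM per kb) did not move the same way in the 3 lines. In EA1 it was 1.21, 1.03, 0.703 and 1.22 in DMSO and 1.61, 1.96, 2.04 and 2.49 in alectinib, with every alectinib library above every DMSO library. In EA3 it was 0.826, 0.771, 0.595 and 0.654 in DMSO and 1.57, 1.33, 0.742 and 1.06 in alectinib, higher on each of the 4 days with overlapping ranges. In EA2 it was 0.14, 0.129, 0.0789 and 0.125 in DMSO and 0.0871, 0.0642, 0.0148 and 0.188 in alectinib, lower on 3 days and higher on day 5. The summed keratin level was 2072 ± 477 CPM per kb in alectinib for EA1, 514 ± 179 for EA2 and 2224 ± 1006 for EA3, and only EA2 showed no overlap with its DMSO libraries (1173 to 1752 in DMSO, 288 to 674 in alectinib).

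**Figure D3:**
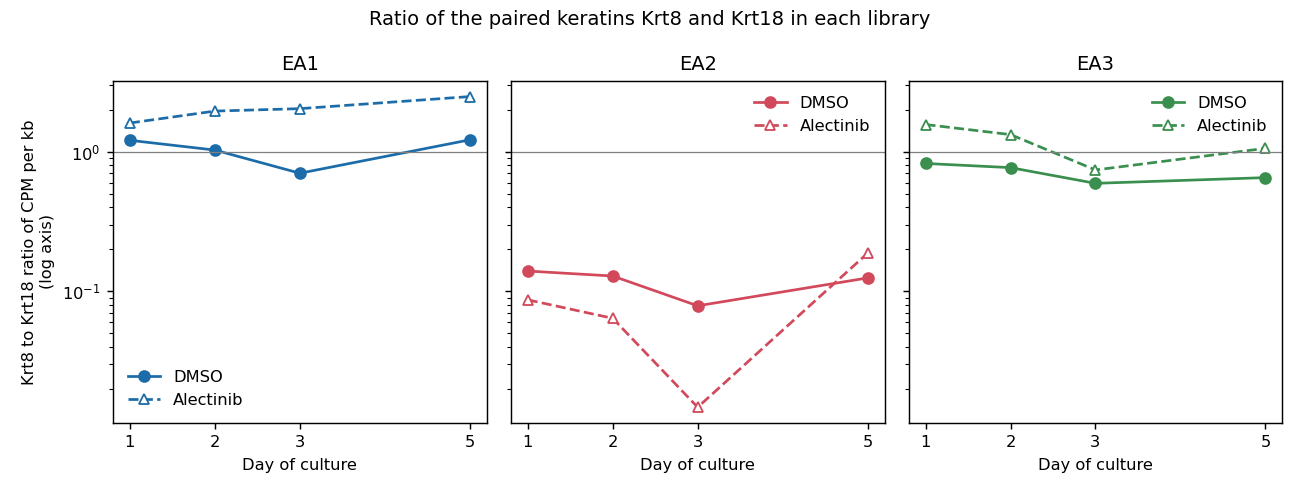
Ratio of Krt8 to Krt18 (CPM per kb, log axis) by day in EA1, EA2 and EA3, with DMSO as filled circles and alectinib as open triangles, 1 library per point, and a grey line at 1. Alectinib points lie above DMSO on all 4 days in EA1 and EA3, and below it on days 1, 2 and 3 in EA2.

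Krt8 shares sequence with a pseudogene. The processed pseudogene Krt8-ps (chromosome 7, 23357125 to 23358069) matched the Krt8 transcript at 931 of its 945 bases (98.4%) and shared an identical run of 299 bases with it. Reads that fit both genes may be lost from both, and their counts are uncertain to that extent. The counts of Krt8-ps were between 0% and 3.33% of those of Krt8 in the 24 libraries. Adding them to Krt8 gave a log2 fold change of -2.62 in EA2, with -0.49 in EA1 and -0.43 in EA3. This alternative was chosen after seeing the data and restores no read lost from both. Krt14 shares identical runs of 134 bases with Krt16 and 71 bases with Krt17, and low values of these 3 genes are uncertain to that extent. Exons of Krt8, Krt7, Krt5 and Krt80 overlap genes on the other strand over 5.16%, 1.09%, 5.87% and 4.11% of their bases, and whether the counting used strand is not given in the sources used here.

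Krt19 did not pass the test in any line as an average over days, with a log2 fold change of -0.74 for EA2 (adjusted p = 0.309, edgeR), -0.30 for EA1 (adjusted p = 0.648) and -0.36 for EA3 (adjusted p = 0.621). Without the filter on low counts it passed in EA2 at the same fold (adjusted p = 0.00128, edgeR). The days differed. EA3 held 750, 1236, 1532 and 2465 CPM in DMSO and 2008, 1357, 701 and 709 CPM in alectinib, so that alectinib was the higher on days 1 and 2 and the lower on days 3 and 5. The log2 ratio was 1.42, 0.13, -1.13 and -1.80 on the 4 days in EA3, 0.73, -0.27, -0.78 and -0.86 in EA1, and 0.51, -0.14, -1.62 and -1.71 in EA2. The alectinib effect on Krt19 changed by -1.44 ± 0.20 SE per doubling of days in EA3 (adjusted p = 0.0387, edgeR), where 0.0491% of genes had a slope past the threshold in that direction. In EA1 the slope was -0.71 (adjusted p = 0.228, edgeR) and in EA2 -1.06 (adjusted p = 0.281, edgeR).

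Krt19 also changed over days in the DMSO cultures of EA1 and EA3. Krt19 rose with days in DMSO by 0.69 ± 0.15 SE per doubling of days in EA1 (adjusted p = 0.0373, edgeR), where 0.807% of genes rose, and by 0.73 ± 0.14 SE in EA3 (adjusted p = 0.0178, edgeR), where 3.17% rose. In EA2 the DMSO slope was 0.36 and did not pass (adjusted p = 1, edgeR). In EA1 it went from 663 CPM on day 1 to 2065 CPM on day 5 in DMSO, and was 1096, 930, 808 and 1134 CPM in alectinib. In alectinib cultures of EA3 the slope was -0.71 per doubling of days, with an adjusted p of 0.0674 by edgeR. Medium changes, cell density and passage up to the days of harvest are not given in the sources used here, so that time in drug and time in culture cannot be told apart within a treatment.

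Krt20 fell in EA2 and EA3. In EA2 it was at 0.896, 1.63, 5.41 and 2.66 CPM in DMSO (10, 11, 54 and 31 counts) and at 0.395, 0.177, 0.677 and 0.112 CPM in alectinib (4, 1, 6 and 1 counts), without overlap. The log2 fold change was -2.81 ± 0.46 SE (adjusted p = 0.000611, edgeR), and the ratio of summed counts per library size was 7.77 (95% counting interval 4.27 to 15.5). In EA3 it was at 10.0, 26.2, 62.1 and 36.4 CPM in DMSO and at 7.21, 13.7, 21.6 and 25.8 CPM in alectinib, lower on each of the 4 days with overlapping ranges. The log2 fold change in EA3 was -0.87 ± 0.27 SE (1.82-fold lower, adjusted p = 0.0262, edgeR), and the call was lost without day 2 (-0.89, adjusted p = 0.101, edgeR), without day 3 (-0.66, adjusted p = 0.108, edgeR), without the day block (-0.98, adjusted p = 0.138, edgeR) and with scaling by library size alone (-0.75, adjusted p = 0.0533, edgeR). In EA1 the log2 fold change of Krt20 was -0.11 (95% confidence interval -0.69 to 0.46).

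Krt23 in EA3 had the largest fitted change among the members tested. In EA3 it was at 0.987, 15.0, 11.0 and 29.2 CPM in DMSO (11, 129, 83 and 177 counts), and the 4 alectinib libraries held 1, 1, 1 and 2 counts. Every alectinib library lay below every DMSO library. The ratio of summed counts per library size was 88.5 (95% counting interval 37.6 to 274), and the fitted log2 fold change was -6.50 ± 0.78 SE (adjusted p = 7.14e-05, edgeR). In EA1, Krt23 was at 18.8, 44.0, 94.8 and 51.2 CPM in DMSO and at 6.08, 4.65, 6.83 and 9.22 CPM in alectinib, 6.89-fold lower with no overlap (log2 fold change -2.79 ± 0.49 SE, adjusted p = 0.000928, edgeR). In EA2, where DMSO libraries held 4, 6, 19 and 18 counts and alectinib libraries 6, 0, 0 and 1, the log2 fold change of -2.40 ± 0.84 SE did not pass (adjusted p = 0.0522, edgeR). Without day 1, on which alectinib was the higher in EA2, it was -4.76 (adjusted p = 0.000864, edgeR), whereas without day 2, 3 or 5 it was -2.18, -1.67 or -2.005 (adjusted p = 0.151, 0.259 and 0.227, edgeR). It also passed with DESeq2 (-2.95, adjusted p = 0.00941), with scaling by library size alone (-2.46, adjusted p = 0.0473, edgeR) and without the filter on low counts (-2.39, adjusted p = 6.49e-05, edgeR).

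Krt7 rose in EA2 from near absence. DMSO libraries held 3, 1, 1 and 4 counts and alectinib libraries 23, 17, 31 and 11, or 2.27, 3.0, 3.5 and 1.24 CPM, without overlap. The ratio of summed counts per library size was 10.4 (95% counting interval 5.2 to 23.4), and the log2 fold change was 3.30 ± 0.55 SE (adjusted p = 0.000741, edgeR), and 3.90 without day 5 (adjusted p = 0.000329, edgeR). Even so, the highest of these libraries stayed below the lowest of EA1 (25.1 CPM). In EA1 and EA3 the log2 fold changes were 0.11 (95% confidence interval -0.475 to 0.69) and 0.17 (-0.41 to 0.75).

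Krt14, the type I keratin of basal cells, rose in each of the 3 lines. In EA1 it was at 2.93, 5.68, 1.5 and 3.62 CPM in DMSO and at 18.5, 23.6, 30.3 and 67.4 CPM in alectinib, with no overlap. The log2 fold change was 3.28 ± 0.51 SE (9.71-fold, adjusted p = 0.000415, edgeR). In EA2 it was at 1.52, 1.34, 0.301 and 0.258 CPM in DMSO and at 2.57, 5.3, 5.75 and 2.02 CPM in alectinib, also without overlap (2.25 ± 0.58 SE, adjusted p = 0.0118, edgeR), and without day 3 the call was lost (1.71, adjusted p = 0.0554, edgeR), whereas without day 1 it was 2.93 (adjusted p = 0.0112, edgeR). In EA3 it was at 3.14, 1.28, 0.264 and 1.15 CPM in DMSO and at 8.68, 4.25, 3.2 and 1.51 CPM in alectinib, higher on each of the 4 days with overlapping ranges (1.65 ± 0.55 SE, adjusted p = 0.0356, edgeR). That call in EA3 was lost without day 1 (1.75, adjusted p = 0.0713, edgeR), day 2 (1.57, adjusted p = 0.119, edgeR) or day 3 (1.25, adjusted p = 0.0896, edgeR) and without the day block (1.54, adjusted p = 0.0764, edgeR).

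The rise of Krt14 came without its partner, since Krt5 had 0 counts in the 12 alectinib libraries too. In EA1, Krt14 made up 0.0594% ± 0.0317 of the keratin level per kb in DMSO and 1.05% ± 0.669 in alectinib. Trp63, the transcription factor of basal cells, named here after its values were seen, was low in every group and rose in EA1, from 0.173 ± 0.0793 to 1.3 ± 0.99 CPM (log2 fold change 2.65, adjusted p = 0.0272, edgeR). In EA2 its DMSO libraries held 0.398 ± 0.246 CPM and its alectinib libraries 0.447 ± 0.407 CPM (adjusted p = 0.875, edgeR), and in EA3 at 0.213 ± 0.172 and 1.37 ± 1.47 CPM (log2 fold change 2.17, adjusted p = 0.0646, edgeR). Krt17 appeared in EA3 alone, with 0 counts in 4 DMSO libraries and 2, 4, 14 and 2 counts in the alectinib libraries, at least 6.63-fold higher against a floor of 3 counts over the DMSO group. It was below the filter on low counts, and in the fit without that filter its adjusted p was 0.0667 by edgeR. Fibroblast markers were higher with alectinib in the same libraries as Krt14, as given above.

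Krt80 rose in EA2, from 22.5, 17.2, 10.3 and 10.1 CPM in DMSO to 49.4, 75.3, 32.4 and 53.9 CPM in alectinib, without overlap (3.55-fold, log2 fold change 1.83 ± 0.36 SE, adjusted p = 0.00242, edgeR). Krt80 reached 3.66% ± 1.77 of the keratin level per kb in EA2 with alectinib, against 0.356% ± 0.196 in DMSO. These shares depend on the length used, with 6.69% and 0.682% for coding bases, 1.87% and 0.174% for all exon bases, and 7.12% and 0.721% without length scaling. In EA3, Krt80 was at 34.9, 25.1, 32.6 and 27.7 CPM in DMSO and at 83.1, 64.6, 60.0 and 13.1 CPM in alectinib, so that day 5 went the other way. The log2 fold change in EA3 was 0.66 (adjusted p = 0.178, edgeR), and it passed without day 5 (1.17, adjusted p = 0.013, edgeR) and without the filter on low counts (0.62, adjusted p = 0.0483, edgeR), and in EA1 it was 0.55 (adjusted p = 0.245, edgeR).

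**Figure D4:**
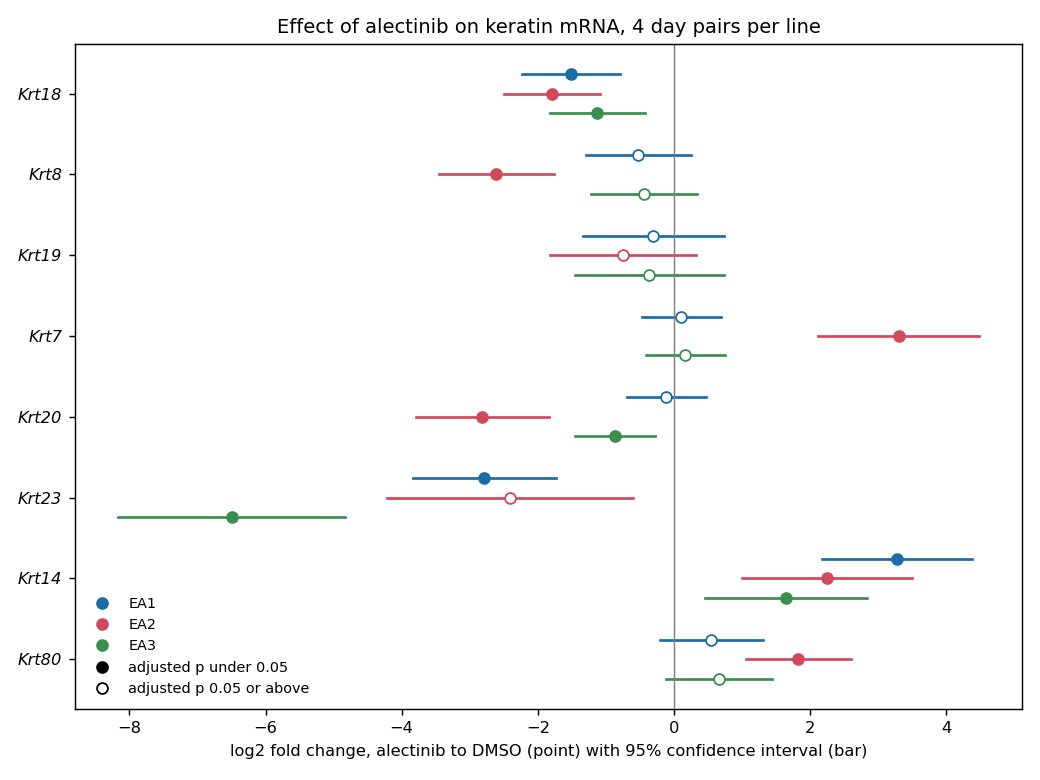
Log2 fold change of alectinib to DMSO for the 8 tested keratins in EA1, EA2 and EA3, as points with 95% confidence intervals over 4 day pairs, filled where the adjusted p was under 0.05. The 3 intervals of Krt18 lie below 0 and those of Krt14 above 0, whereas Krt8 and Krt7 leave 0 in EA2 only.

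The size of the alectinib effect was compared between lines with the same model. It differed for 3 of the 8 members, Krt7 (adjusted p = 0.0165), Krt20 (adjusted p = 0.0224) and Krt8 (adjusted p = 0.0336, edgeR, 2 degrees of freedom), against 6.84% of all genes. EA2 differed from EA1 in each of them and from EA3 in Krt7 and Krt8, whereas for Krt20 the pair of EA3 and EA2 did not pass (1.95, adjusted p = 0.0713, edgeR). For Krt8 the difference of log2 fold changes was -2.09 for EA2 minus EA1 (95% confidence interval -3.22 to -0.96, adjusted p = 0.0331, edgeR) and 2.16 for EA3 minus EA2 (1.03 to 3.30, adjusted p = 0.0442, edgeR). For Krt7 the difference of EA2 minus EA1 was 3.20 (1.85 to 4.54, adjusted p = 0.0105, edgeR), and for Krt20 it was -2.70 (-3.85 to -1.55, adjusted p = 0.0111, edgeR). Pairwise tests of the effect called 6.44% of genes for EA2 against EA1, 1.79% for EA3 against EA1 and 2.86% for EA3 against EA2. These calls were not stable, since 2, 0, 0 and 1 members passed when days 1, 2, 3 and 5 were left out in turn, and 1 passed without the day block.

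Krt18 and Krt14 did not pass that test. The difference in the effect on Krt18 was -0.28 (95% confidence interval -1.27 to 0.71) for EA2 minus EA1 and 0.39 (-0.60 to 1.37) for EA3 minus EA1, with an adjusted p of 0.562 over the 3 lines by edgeR. For Krt14 the adjusted p was 0.314, and for Krt23 it was 0.0589 (edgeR), with a difference of -3.72 (-5.78 to -1.66) for EA3 minus EA1.

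Other filament and anchoring genes were read for comparison. Of the 6 other keratin symbols tested, 1 of which is the pseudogene Krt8-ps, Krt13, a keratin of internal stratified epithelium, fell in each line, by 2.12 in EA1, 1.73 in EA2 and 3.34 in EA3 on the log2 scale (adjusted p = 0.00109, 0.0128 and 9.17e-05, edgeR), and Krt87 rose in EA2 (2.38, adjusted p = 0.0449, edgeR). Of 13 tested genes for proteins that anchor keratin at desmosomes and hemidesmosomes, 3 rose and 3 fell in EA1, 4 rose and 3 fell in EA2, and 5 rose and 1 fell in EA3. Counts of this list and of the lists below are to be read against all genes tested. Genes that rose made up 19.0% of those for EA1, 13.0% for EA2 and 17.5% for EA3. Genes that fell made up 14.6%, 11.3% and 15.1%, with the lines in that order. Whether the anchor list departs from these shares was not tested. Dsp, which encodes desmoplakin, the link between keratin filaments and the desmosome, rose in each line, with its largest log2 fold change, 1.60, for EA2 (adjusted p = 0.00384, edgeR), beside 1.21 for EA1 (adjusted p = 0.015) and 1.17 for EA3 (adjusted p = 0.0227). Itga6, a chain of the hemidesmosome integrin, fell in each line, also most in EA2, where the log2 fold change was -3.51 (adjusted p = 1.19e-05, edgeR), beside -1.79 for EA1 (adjusted p = 0.00065) and -2.18 for EA3 (adjusted p = 0.000194).

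Of 9 tested genes for other intermediate filaments, 1 rose and 1 fell in EA1, 4 rose and 5 fell in EA2, and 2 rose and 3 fell in EA3. Vim rose by 0.82 on the log2 scale in EA2 (adjusted p = 0.0183, edgeR), and was 0.04 in EA1 and -0.60 in EA3 (adjusted p = 0.92 and 0.0569, edgeR). Of the 10 epithelial markers, 1 rose and 0 fell in EA1, 2 rose and 1 fell in EA2, and 1 rose and 0 fell in EA3. Cdh1 rose in EA2 (log2 fold change 1.55, adjusted p = 0.000116, edgeR), the line in which Krt8 and Krt18 fell, and in EA3 (0.65, adjusted p = 0.0237, edgeR). Epcam rose in EA1 (2.45, adjusted p = 0.00497, edgeR). In EA2 it went the other way, from 20 counts over the DMSO libraries to 0, and did not pass (adjusted p = 0.0536, edgeR). The effect on Epcam differed between lines (adjusted p = 0.0302, edgeR). The other marker that rose in EA2 was Esrp2 (1.01, adjusted p = 0.00641, edgeR), and the 1 that fell there was Spint1 (-2.57, adjusted p = 0.0206, edgeR).

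Of 9 tested genes of the cornified envelope, 1 rose and 1 fell in EA1, 1 rose and 0 fell in EA2, and 2 rose and 3 fell in EA3. Of 12 tested factors known to act on keratin genes, 5 rose and 1 fell in EA1, 2 rose and 1 fell in EA2, and 1 rose and 4 fell in EA3. As a reference for both lists, the share of all tested genes that rose was 19.0% (EA1), 13.0% (EA2) or 17.5% (EA3). The share that fell was 14.6%, 11.3% or 15.1% by line in that order. Whether either list departs from these shares was not tested. Ehf, an epithelial ETS factor, had 0 counts in the 4 DMSO libraries of EA1 and rose there (adjusted p = 2.26e-05, edgeR), so that no fold is given. Ehf also rose in EA3 (log2 fold change 0.89, adjusted p = 0.0328, edgeR) and did not pass in EA2 (adjusted p = 0.674, edgeR). Grhl2, a regulator of epithelial genes, fell by 3.03 on the log2 scale in EA2 (adjusted p = 0.00358, edgeR), with 2.19 in EA1 (adjusted p = 0.0778, edgeR) and -0.10 in EA3 (adjusted p = 0.898, edgeR). Snai2, a repressor of epithelial genes, rose in EA2 (log2 fold change 1.25, adjusted p = 0.00272, edgeR), and Sox2 fell in EA3 from low counts (adjusted p = 0.00665, edgeR). Of leukocyte markers 3 of 10 passed the filter and of endothelial markers 4 of 10, and in each list 1 fell in EA2 and 0 were called in EA1 and EA3.

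Likeness of pattern was measured as Pearson's r of log2 CPM over the 24 libraries, as a description, since the points share lines, days and libraries. The genes most like Krt8 were Lsr (r = 0.958), Itgb4 (0.953) and Lad1 (0.946), and its nearest member was Krt19 (0.897), at place 28 of 14263 genes. Those most like Krt19 were Traf4 (0.929), Slc37a1 (0.922) and Cdc42ep5 (0.922), with Krt8 at place 20. For Krt18 they were Dyrk3 (0.954), Insm1 (0.916) and Hmga2 (0.906), and its nearest member was Krt23 (0.568), at place 937. For Krt7 they were Clu (0.965), Arhgef16 (0.955) and Unc13d (0.953), with Krt19 as the nearest member at place 507. Krt8 was thus nearer to Krt19 than to its partner Krt18 on this measure.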

How the data were processed

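RNA from 26 mouse cell line libraries was sequenced by the authors after poly(A) selection. The authors trimmed reads with bbduk, aligned them with STAR (build mm10) and deposited unnormalized gene counts from the aligner's own counter, with FastQC and edgeR also named in the submitters' processing notes. The gene annotation and the strand setting of the counting are not given in the sources used here. Of 55415 lines, 24 named a date instead of a gene (0.129% to 0.201% of counts) and were dropped. Per the labels, groups were line and treatment, and days 1, 2, 3 and 5 were the replicates.

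Counts were normalized by TMM, filtered with filterByExpr and tested in edgeR 4.0.16 (R 4.3.3) by robust quasi-likelihood with 12 line-day blocks and 1 alectinib effect per line, with Benjamini-Hochberg adjustment. The block follows the line and culture day of the labels. Paired deviations correlated at -0.300 to 0.549. Slopes used log2 of the day. Levels per kb used GENCODE principal transcripts. Library totals had a median of 9252878 counts, and intervals of count ratios cover counting error only. On simulated data with a log2 change of 2 in 200 genes, 159 were recovered for EA1, 158 for EA2 and 163 for EA3. False calls among 14064 unchanged genes were 9, 5 and 8 in the same order. The draw used the fitted spread of the same model and planted no change in genes of the lowest mean level. It therefore checks the calculation alone. The named genes were the 10 members, the 3 genes most like each of 4 members, other keratins that passed the filter, at most 4 genes per list by smallest p-value, and always Epcam, Cdh1 and Vim. Members and lists were chosen with earlier results of these data known. Alternatives covered normalization, filters, the block, single days, all 26 libraries, lines fitted alone and DESeq2 1.42.0, and, chosen after seeing the data, coding or exon length and Krt8-ps counts added to Krt8.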

Additional observations from a re-analysis of the deposited data

Results flagged for a closer look

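The Krt7 level of EA3 in DMSO on day 3 was 391 CPM, apart from the 969 to 1047 CPM of the other 3 days by 0.882 of the range of the group. It was the 1 such library among 44 groups of 4 libraries examined, and chance sets apart about 1 in 20 groups. The effect of alectinib differed between lines for Krt7 (adjusted p = 0.0165), Krt20 (adjusted p = 0.0224) and Krt8 (adjusted p = 0.0336, edgeR), with the values given above. In the alectinib library labelled EA3 day 7, which entered no comparison but the alternative with all 26 libraries, Krt14 was at 1.61 CPM against 0.252 CPM in the DMSO library of that day, and Krt80 at 29.6 CPM against 6.67 CPM. Both libraries resembled EA2 more than EA3.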

How the results depend on the processing

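Of 276 alternatives for 24 log2 fold changes, 252 kept the direction and the side of the threshold, 11 lost a call and 9 gained one. The other 4 changed sign, none of them a called value: Krt20 in EA1 was 0.019 without day 1 (range without 1 day -0.42 to 0.019), Krt7 in EA1 -0.10 without day 3 (-0.10 to 0.19), Krt7 in EA3 -0.083 without day 3 (-0.083 to 0.54) and Krt19 in EA3 0.14 without day 5 (-0.94 to 0.14). Krt18 in EA1 and EA2, Krt8, Krt7, Krt20 and Krt80 in EA2, Krt23 in EA1 and EA3 and Krt14 in EA1 kept their calls in each alternative that tested them.

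Without a filter on low counts, 3 members fell in EA1, 5 in EA2 and 4 in EA3, 2 rose in EA3 and 5 differed in effect between lines. Krt8 then passed in all 3 lines. Adjusted p-values of the called members were smaller in that fit at like folds, such as 1.47e-15 in place of 0.00387 for Krt18 in EA1 (edgeR). Calls gained there, among them those of Krt8, are therefore not comparable with the main ones, and the cause was not tested. With scaling by library size alone Krt20 in EA3 lost its call (-0.75). Of 72 alternatives for shares of the keratin level, 30 moved by more than the spread between days. With at least 10 counts in every library, which tests fewer members, 0 rose and 1 fell in EA1, 1 rose in EA2, 0 rose and 1 fell in EA3 and 1 differed between lines. Without the replicate block of paired days, 0 rose in EA3 and 1 differed between lines. With all 26 libraries 1 differed between lines, in a fit that entered the 2 day 7 libraries as EA3 although they resembled EA2. Without single days, 0 to 2 members rose and 1 to 3 fell in EA3, and 0 to 2 differed in effect between lines. The count of members that differed between lines in DMSO was 6, and 4 to 7 over its alternatives, with 5 for library size alone, 7 with day as a block, 7 by DESeq2's likelihood ratio test, 4 with at least 10 counts in every library and 5 to 7 without single days. Krt17 and Krt5 were below the depth needed for the test.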

Other observations

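The 2 libraries labelled EA3 day 7 held the keratin profile below. Alectinib and DMSO libraries held 192 and 1725 CPM of Krt18, 57.0 and 160 CPM of Krt8, and 102 and 195 CPM of Krt19. Krt7, at 391 to 1047 CPM in the other EA3 DMSO libraries, had 0 counts in DMSO and 7 in alectinib. In the same order Krt20 was at 0.0846 and 5.41 CPM and Krt23 at 0.0846 and 2.64 CPM, where 0.0846 CPM is 1 count. Krt5 and Krt17 had 0 counts in both. The alectinib library correlated at 0.960 to 0.988 with the alectinib libraries of EA2 and at 0.852 to 0.871 with those of EA3, over 14335 genes that share library preparation and are no replicates. With 1 library per treatment there was no test.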
